A study of Mus musculus with 32 samples.

Results

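CD8 and cytotoxic effector genes were followed as 10 transcripts in bulk RNA-Seq of mouse colon and colon tumors. The members are Cd8a, Cd8b1, Prf1, Gzma, Gzmb, Gzmk, Nkg7, Klrk1, Eomes and Tbx21. They were taken by symbol from the count table, where all 10 have a row among 55291 genes. The 32 libraries came from C57BL/6 mice that were wild-type (WT) or carried a full-body constitutive knockout (KO) of Dnase1l3, a secreted DNase that digests extracellular chromatin. Untreated whole colon (D0) was sampled from 4 WT and 4 KO mice, whose age the labels do not give. Whole colon was also taken at D19, after 1 cycle of the carcinogen azoxymethane and the colitis agent dextran sulfate sodium (AOM/DSS) and 5 days of recovery, and at D80, after 3 cycles, from 4 mice of each genotype at each time. Tumors were taken after 3 cycles from 5 WT and 3 KO mice, and 3 mice of each genotype gave both a D80 colon and a tumor. The treated mice were 3 months old when AOM was given. All 8 groups are bulk tissue, so fewer cells of a type and less RNA per cell cannot be told apart.

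CD8 T cells and NK cells kill target cells by releasing granules. Perforin opens a path through the target membrane, and granzymes, which are serine proteases, enter and cleave proteins that start cell death. T-bet and Eomes are related T-box transcription factors that, with RUNX3, drive the genes of this program. In the gut the same genes are also used by intraepithelial lymphocytes, including gamma delta T cells, so that no member but the CD8 beta chain is close to specific for conventional CD8 T cells.

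The members were rare transcripts at every stage. The libraries held 18951121 to 47623288 counts assigned to genes, and the 10 members together took 34 to 134 of them at D0 in the KO group and 43 to 83 in the WT group. In the other groups the members took 84 to 1722 counts per library. These few reads limit how small a difference could be seen, above all at D0. No pair of libraries in a group agreed within sampling noise. KO mouse 811 at D19, WT mouse 581 at D80 and the tumor of KO mouse 544 stood apart within their groups by their shares of mitochondrial (8.02% to 15.1%) and ribosomal protein (7.56% to 12.4%) counts, and results that rest on them are also given without them. Counts of Dnase1l3 did not separate the genotypes: in the libraries labelled KO they were 1.64 to 5.02 CPM (counts scaled by library size) at D0 and 3.57 to 8.5 CPM in tumors, against 1.79 to 3.59 CPM and 2.04 to 10.4 CPM in WT. At D19 the ranges did not overlap (0.675 to 6.79 CPM in KO, 7.29 to 8.84 CPM in WT), with a log2 fold change of -1.07 ± 0.50 (SE) and an adjusted p of 0.44 in edgeR's quasi-likelihood test. The study itself reports strongly reduced Dnase1l3 expression along the intestine of this strain, and KO serum that was defective in digesting DNA and chromatin. Which exons the knockout allele lacks is not given in the sources used here, so gene-level counts do not check the labels, and KO and WT below mean the libraries labelled so.

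The promoters of 3 granule genes, Prf1, Gzma and Gzmb, are shown because their calls between KO tumors and KO colon differed. The difference between Prf1 and the granzymes was not itself tested. RefSeq (GRCm38.p6) gave a start site for 9 of the 10 members, and the 250 bases before it were searched on both strands for the RUNX core TGTGGT and the T-box core GGTGTG, which cannot be the same site but may overlap by some bases. A RUNX core was found in 5 of the 9 members, namely Prf1, Gzma, Gzmb, Nkg7 and Klrk1, and in 14% of all 32851 promoters. A T-box core was found in 2 of the 9, Gzmk and Nkg7, and in 16.3% of all promoters. No match was found in these windows of Cd8a, Eomes and Tbx21. The sequences run 5′ to 3′ on the strand of the gene, with matches in capitals, all of them to the RUNX core or its reverse complement ACCACA. The Prf1 window is chr10:61297586-61297835 on the plus strand, with its match starting 130 bases before the start site. The Gzma window is chr13:113100982-113101231 on the minus strand, with its match 50 bases before the start. The Gzmb window is chr14:56262335-56262584 on the minus strand, with matches 93 and 34 bases before the start, and its RefSeq start lies upstream of the GENCODE start at 56262260.
Prf1: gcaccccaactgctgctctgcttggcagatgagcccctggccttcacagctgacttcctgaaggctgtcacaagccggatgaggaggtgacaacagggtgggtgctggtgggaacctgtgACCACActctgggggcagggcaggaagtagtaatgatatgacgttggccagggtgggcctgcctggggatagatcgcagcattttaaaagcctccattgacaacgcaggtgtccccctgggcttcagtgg
Gzma: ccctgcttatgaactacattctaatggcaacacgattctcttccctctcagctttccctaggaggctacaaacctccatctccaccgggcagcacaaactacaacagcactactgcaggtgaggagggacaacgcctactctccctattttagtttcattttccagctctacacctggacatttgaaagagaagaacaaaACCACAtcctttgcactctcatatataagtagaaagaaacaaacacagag
Gzmb: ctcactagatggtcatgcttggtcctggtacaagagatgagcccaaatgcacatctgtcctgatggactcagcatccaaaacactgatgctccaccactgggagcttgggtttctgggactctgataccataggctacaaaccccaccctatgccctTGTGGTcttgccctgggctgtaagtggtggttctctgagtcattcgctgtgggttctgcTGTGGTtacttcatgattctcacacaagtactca
Of these 3 genes Prf1 alone was called lower in KO tumors than in KO colon, from 3 counts in each KO tumor. Without the tumor of KO mouse 544 Gzmb was called lower too. All 3 windows hold the RUNX letters. A match is a description of letters and not of binding.

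In the GENCODE annotation of the same assembly, Cd8b1 (chromosome 6, 71322788 to 71337494, plus strand) and Cd8a (chromosome 6, 71373427 to 71379173, plus strand) are neighbours, and Gzma (chromosome 13, 113093825 to 113100981, minus strand) lies near Gzmk (chromosome 13, 113171608 to 113225908, minus strand). Prf1 spans 61297833 to 61304680 of chromosome 10 on the plus strand, and Gzmb spans 56258838 to 56262260 of chromosome 14 on the minus strand. Exons of Eomes share bases with Gm33460 on the opposite strand, so reads of the pair may not be told apart. The other 9 members share no exon bases with another annotated gene.

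Compared per length of exon, as CPM per kilobase (RPKM), Gzma, Gzmb and Nkg7 had the 3 highest means in each of the 8 groups, while Prf1 and Gzmk, whose products are also granule proteins, had lower means than Cd8a in each. In untreated WT colon Gzma had a mean level of 0.503 RPKM and Nkg7, a granule membrane protein, 0.445 RPKM, while Cd8a had 0.0932 RPKM and Prf1 0.0176 RPKM. In KO colon at D19 the means were 7.23 RPKM for Gzma, 5.89 RPKM for Gzmb, 3.57 RPKM for Nkg7, 0.663 RPKM for both Cd8a and Cd8b1, 0.376 RPKM for Klrk1, 0.263 RPKM for Tbx21 and 0.248 RPKM for Prf1. Eomes stayed between 0.0539 and 0.0995 RPKM in the means of all 8 groups. Gzmk had no count in any KO library at D0 and at most 18 counts in a library.

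**Figure D1:**
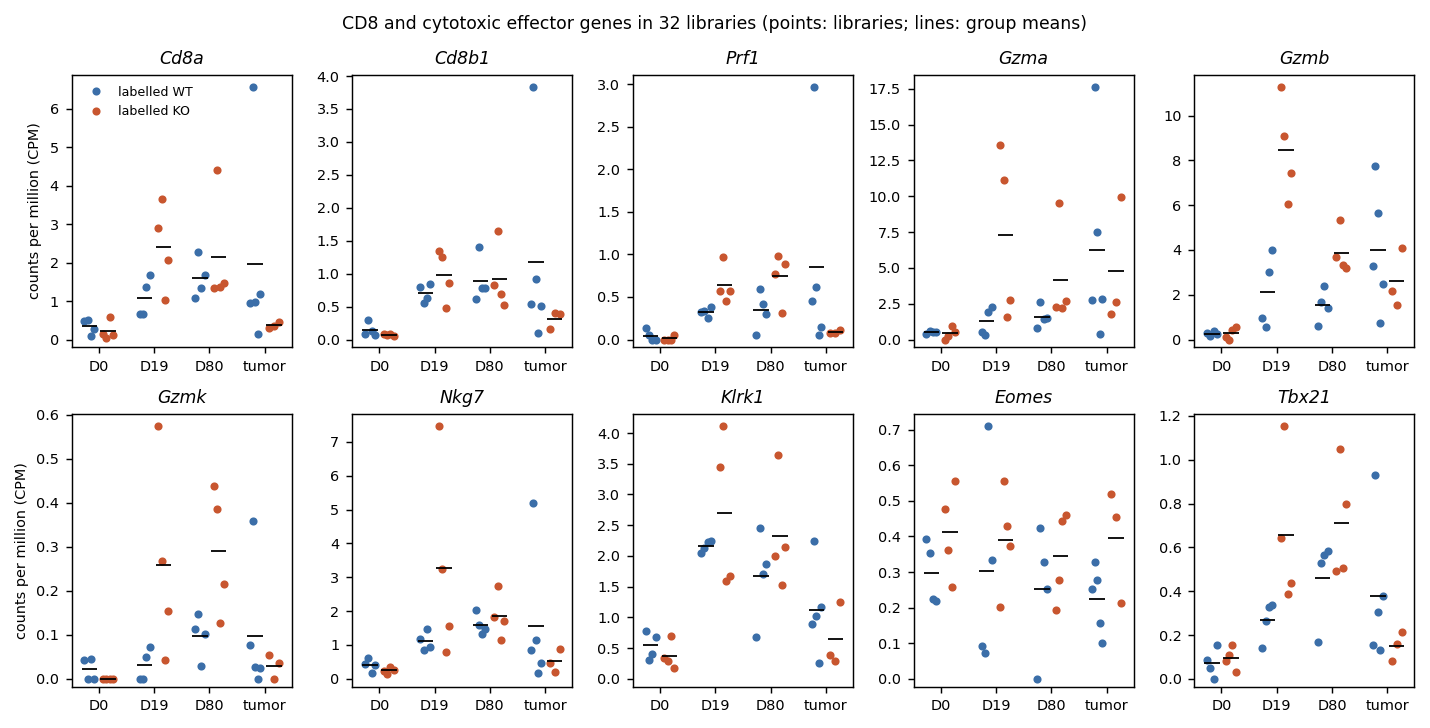
Level of each member in CPM (y axis) by stage (x axis), with 1 point per library, blue for WT and orange for KO, and a line at each group mean. In both genotypes all members but Eomes had higher group means at D19 and D80 than at D0, though in WT the libraries of some members overlapped. The library of 1 WT tumor (mouse 541) lies far above the other WT tumors for Cd8a, at 6.56 CPM.

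The first question is how the cytotoxic genes changed from untreated colon to D19. In WT colon 5 of the 7 members tested rose (Cd8a, Cd8b1, Gzmb, Nkg7 and Klrk1) and none fell, where 9.33% of all 18570 genes tested rose and 4.04% fell by the same rule, an adjusted p under 0.05 in edgeR's quasi-likelihood test and a fold change over 2. In KO colon 8 of 9 members tested rose, all but Eomes, where 8.95% of all 19191 genes rose and 2.52% fell. Since 3 members in WT and 1 in KO failed the filter on low counts, these counts are not over all 10. The median log2 fold change over the members tested was 1.67 in WT and 3.67 in KO, with 0.0038 and 0.026 over all genes tested. A single fit of all 32 libraries called 3 members in WT, without Cd8a and Nkg7, and 8.18% of all genes.

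Cd8a, the alpha chain of the CD8 co-receptor, was counted at 0.480, 0.505, 0.0896 and 0.281 CPM in the 4 WT colons at D0 and at 0.651, 0.669, 1.37 and 1.67 CPM at D19. In KO colon it went from 0.133, 0.0362, 0.596 and 0.117 CPM at D0 to 2.90, 3.64, 1.03 and 2.06 CPM at D19. The D19 values lay above the D0 values in both genotypes, without overlap, as for 24.9% of all genes in WT and 11.5% in KO. The log2 fold change of Cd8a was 1.67 ± 0.47 in WT (adjusted p = 0.0154) and 3.36 ± 0.71 in KO (adjusted p = 0.0109). Cd8b1, the beta chain that pairs with it on conventional CD8 T cells, rose by 2.27 ± 0.42 in WT (adjusted p = 0.0019) and by 3.68 ± 0.47 in KO (adjusted p = 0.000639) on the log2 scale.

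Gzmb, the granzyme that cleaves caspases, stood at 0.306, 0.151, 0.358 and 0.25 CPM in WT colon at D0 and at 0.977, 0.550, 3.01 and 4.0 CPM at D19. In KO colon it was 0.106, 0, 0.414 and 0.555 CPM at D0 and 11.3, 9.09, 6.07 and 7.42 CPM at D19. Within WT the 2 higher D19 libraries were those of mice 805 and 812, while mice 685 and 686, whose titles carry another number prefix, were lower. The log2 fold change of Gzmb was 2.94 ± 0.65 in WT (adjusted p = 0.0046) and 4.91 ± 0.70 in KO (adjusted p = 0.0013). Gzma, a tryptase-like granzyme, rose in KO (4.06 ± 1.0, adjusted p = 0.0245), and in WT its log2 fold change of 1.29 ± 0.59 had an adjusted p of 0.0966. The KO call of Gzma was lost without KO mouse 853 or 872 at D0 or KO mouse 813 at D19. Without KO mouse 811 the same 8 members were called with a median of 3.24, a count not set against all genes.

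Prf1, which encodes perforin, had 2 counts over the 4 KO colons at D0 and 111 at D19, a 50.04-fold ratio of counts per library total with an exact 95% interval of 13.5 to 418 that covers counting error only. In WT colon at D0 Prf1 had too few counts to be tested, and at D19 it stood at 0.253 to 0.383 CPM. Gzmk had no count in KO colon at D0 and 39 counts at D19, at least 11.7-fold higher against a floor of 3 counts over the group. Nkg7 rose in WT (1.40 ± 0.33, adjusted p = 0.0070) and in KO (3.67 ± 0.71, adjusted p = 0.0067). Klrk1, which encodes the activating receptor NKG2D, rose by 1.91 ± 0.27 in WT (adjusted p = 0.000415) and by 2.79 ± 0.51 in KO (adjusted p = 0.00525). Tbx21, which encodes T-bet, rose in KO (2.75 ± 0.56, adjusted p = 0.0093) and was not tested in WT. Eomes alone had values near 0 in both genotypes, with a log2 fold change of 0.07 ± 0.64 in WT (adjusted p = 0.94) and one of -0.08 ± 0.40 in KO (adjusted p = 0.95).

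Other genes of the pathway were compared in the same way, where 9.33% of all genes rose in WT and 8.95% in KO. Of cytokines that act on cytotoxic lymphocytes, 0 of 4 tested rose in WT and 1 of 5 in KO. Of transcription factors of effector and memory T cells, 5 of 10 rose in WT and 3 of 10 in KO. Of other granule and killing genes, 5 of 9 tested rose in WT and 6 of 10 in KO, among them Srgn, the proteoglycan that packs granzymes (2.46 ± 0.28 in WT and 4.40 ± 0.32 in KO), and Ctsc, the protease that activates granzymes (1.24 in WT and 1.90 in KO). Of NK type receptors and their adaptors, 6 of 8 rose in WT and 7 of 9 in KO, with Tyrobp, an adaptor also used by myeloid cells, at 2.90 ± 0.26 and 4.30 ± 0.41. Of cytokines, chemokines and receptors of effector lymphocytes, 7 of 8 rose in WT and 8 of 10 in KO, among them the chemokine Ccl4 in KO (7.36 ± 0.58). Of the ligands of NKG2D, 2 of 4 tested rose and 1 fell in WT, and none rose and 1 fell in KO, where H60c changed by -2.21 ± 0.45 (adjusted p = 0.0091). T cell markers rose for 17 of 18 genes in each genotype, B cell markers for 10 of 10 in each, and neutrophil markers for 4 of 4 tested in WT and 9 of 9 in KO. The summed level of the 18 T cell markers went from 7.39 to 11.3 CPM in WT at D0 to 37.6 to 57.6 CPM at D19, and from 7.34 to 11.9 CPM to 53.3 to 106 CPM in KO. Their part in the rise of the members was not tested.

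D80 colon was set against D0 as well. In WT 6 of 7 tested rose, where 7.07% of all genes rose and 3.25% fell, and in KO 8 of 9 rose, where 13.4% rose and 7.63% fell, with Eomes the member not called in both (-0.12 in WT and -0.33 in KO). Gzma rose by 1.65 ± 0.38 in WT (adjusted p = 0.0210) and by 3.22 ± 0.81 in KO (adjusted p = 0.0075), and Tbx21 by 2.85 ± 0.46 in KO (adjusted p = 0.000611). Counts of members called without 1 library were not set against all genes here. Without WT mouse 581, 7 of 8 members tested rose in WT, Tbx21 among them. The call of Klrk1 in WT was lost when any 1 library but that of mouse 581 was left out, that of Gzma without WT mice 851, 920 or 927 at D0 or 541 at D80, and that of Cd8a without WT mouse 927, which left 4 members called. In 1 fit of all 32 libraries Gzma and Nkg7 lost their calls in WT and Prf1 and Tbx21 were called, with 9.4% of all genes higher. From D19 to D80 no member was called in either genotype by edgeR, in WT against 0.00521% of all genes higher and the same share lower, and in KO against 1.21% higher and 0.441% lower. The member with the smallest p there was Gzmb in KO, which went from 6.07 to 11.3 CPM at D19 to 3.68, 5.32, 3.33 and 3.19 CPM at D80, lower without overlap as for 4.92% of all genes, with a log2 fold change of -1.16 ± 0.28 (adjusted p = 0.0884). DESeq2 called it, with an adjusted p of 0.0062, where 1.31% of all genes were called lower. At an unadjusted p under 0.05 the count was 0 of 9 members in WT, where 2.75% of all genes were higher and 2.47% lower, and 1 of 10 in KO, where 6.86% were lower. Without KO mouse 811 the median over the members in KO went from -0.21 to -0.012.

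**Figure D2:**
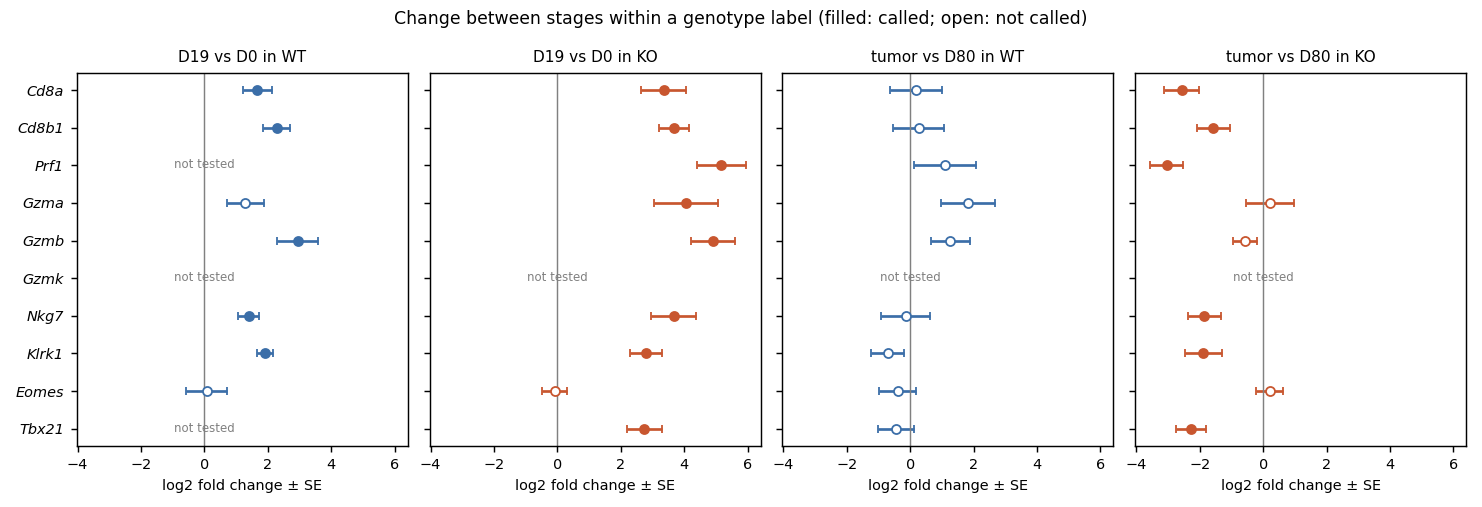
Log2 fold change of each member with its SE (x axis) for D19 against D0 and for tumor against D80 colon, in WT (blue) and KO (orange); filled points were called. Members without enough counts are marked as not tested. Eomes was not called in any panel, and the 6 filled points below 0 in KO tumors are Cd8a, Cd8b1, Prf1, Nkg7, Klrk1 and Tbx21.

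The study set the genotypes against each other at each stage. At D0 only Gzma, Nkg7, Klrk1 and Eomes had enough counts for a test, and none was called, as for all 18175 genes (0.0% higher and 0.0% lower). Their log2 fold changes were -0.22 ± 0.71 for Gzma, -0.67 ± 0.42 for Nkg7, -0.52 ± 0.46 for Klrk1 and 0.50 ± 0.38 for Eomes, and none had an unadjusted p under 0.05, which 4.16% of all genes had as higher and 5.47% as lower. DESeq2 called none of them either (0.143% of all genes higher and 0.0715% lower). The other 6 members had too few counts for this test. In 1 fit of all 32 libraries, which tested all 10, none was called, where 0.0516% of all genes were called higher and 0.0% lower, and the log2 fold changes were -0.54 ± 0.88 for Cd8a, -0.90 ± 0.95 for Cd8b1 and 0.04 ± 0.79 for Gzmb.

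At D19 all 9 members tested had higher fitted levels in KO than in WT colon, though Eomes turned below 0 within number prefixes, and none was called by edgeR, as for all 19545 genes (0.0% higher and 0.0% lower). At an unadjusted p under 0.05, 6 of 9 members were higher (Cd8a, Prf1, Gzma, Gzmb, Nkg7 and Tbx21), where 7.28% of all genes were. The median log2 fold change over the members was 1.17, with 0.01 over all genes. Gzmb had 11.3, 9.09, 6.07 and 7.42 CPM in KO and 0.977, 0.550, 3.01 and 4.0 CPM in WT, without overlap, a log2 fold change of 2.02 ± 0.56 (adjusted p = 0.34). Prf1 and Tbx21 also did not overlap, and 4.23% of all genes were higher in KO without overlap. Prf1 was 0.574, 0.967, 0.450 and 0.571 CPM in KO and 0.326, 0.335, 0.253 and 0.383 CPM in WT (1.0 ± 0.33, adjusted p = 0.38), and Tbx21 had a log2 fold change of 1.28 ± 0.44 (adjusted p = 0.39).

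Gzma at D19 split within both genotypes. KO mice 811 and 813 had 13.6 and 11.2 CPM and KO mice 803 and 804 had 1.57 and 2.79 CPM, while WT mice 805 and 812 had 1.90 and 2.30 CPM and WT mice 685 and 686 had 0.558 and 0.287 CPM. Of the 2 lower KO libraries, 1 lay below and 1 above both of the higher WT libraries. KO mice 811 and 813 carry title prefix 116, and KO mice 803 and 804 carry 115. Ribosomal protein counts were 8.74% and 7.23% in mice 811 and 813, and 4.63% and 4.52% in mice 803 and 804. Mitochondrial counts were 10.6% and 7.04% against 5.09% in both. The part of prefix and of these shares in the split was not tested. The log2 fold change of Gzma was 2.58 ± 0.84 (adjusted p = 0.36). Nkg7 was split in KO but not in WT, with 7.46 and 3.23 CPM in KO mice 811 and 813 and 0.794 and 1.56 CPM in KO mice 803 and 804, against 0.861 to 1.47 CPM in WT (1.62 ± 0.64, adjusted p = 0.43).

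DESeq2 called Gzma (adjusted p = 0.0393) and Gzmb (adjusted p = 0.0206) at D19, where it called 1.14% of all genes higher. Without KO mouse 811 the log2 fold change was 1.80 ± 0.57 for Gzmb, 2.02 ± 0.81 for Gzma and 0.75 ± 0.45 for Nkg7. Within the number prefixes that both genotypes carry, which leaves 2 WT and 4 KO libraries, Gzmb had a log2 fold change of 1.31 ± 0.37 (adjusted p = 0.999), Gzma 1.84 ± 0.93 and Eomes -0.37. The labels do not say what the prefix stands for. Neutrophil markers moved with the genotype at D19, as 9 genes that summed to 325 to 633 CPM in KO and 6.0 to 146 CPM in WT, and the summed T cell markers were 53.3 to 106 CPM in KO and 37.6 to 57.6 CPM in WT. Their part in the members' values was not tested.

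No gene of the other lists was called at D19. Of the genes tested, 9 of 12 of effector lymphocytes (median 1.12), 9 of 12 of other granule and killing genes (median 0.80), 8 of 10 NK type receptors (median 0.80), 7 of 10 transcription factors (median 0.044), 2 of 4 ligands of NKG2D and 2 of 5 cytokines that act on cytotoxic lymphocytes had log2 fold changes above 0, where 50.8% of all genes had. Among them Ccl5, a chemokine of activated lymphocytes, had a log2 fold change of 2.46 ± 0.69 (adjusted p = 0.35). Ifng, which encodes interferon gamma, had 4.31 ± 1.24 (adjusted p = 0.36). Srgn had 1.89 ± 0.35 (adjusted p = 0.30). Trdc, the constant gene of the delta T cell receptor, was 1.59 to 3.07 CPM in KO and 0.359 to 1.42 CPM in WT, without overlap (1.5 ± 0.45, adjusted p = 0.36). All 18 T cell markers were above 0, with a median of 0.75, as were 10 of 10 B cell markers, with a median of 0.83.

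The rise from D0 to D19 was larger in KO than in WT for 8 of the 9 members tested, but none of these differences was called, where 0.0298% of all genes were called lower and 0.0% higher. Nkg7 had the smallest p, with a difference of log2 fold changes of 2.28 ± 0.83 (adjusted p = 0.41), and Gzma had 2.77 ± 1.22 (adjusted p = 0.57). DESeq2 called none of them and 0.342% of all genes higher. Without KO mouse 811 the median difference over the members went from 1.69 to 1.44.

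At D80 all 9 members tested had fitted log2 fold changes above 0, but those of Cd8a, Cd8b1 and Nkg7 turned below 0 without KO mouse 535 and that of Eomes without WT mouse 581, and none was called, as for all 18899 genes (0.0% higher and 0.0% lower). Gzmb was 3.68, 5.32, 3.33 and 3.19 CPM in KO and 0.620, 1.65, 2.39 and 1.42 CPM in WT, without overlap, as for 3.34% of all genes. Its log2 fold change was 1.31 ± 0.35 (adjusted p = 0.68), and without WT mouse 581 it was 1.09 ± 0.26. Gzma (1.34 ± 0.56, adjusted p = 0.68) was the only other member with an unadjusted p under 0.05, where 2.79% of all genes were higher at that threshold. KO mouse 535 had 9.54 CPM of Gzma and the other KO mice 2.22 to 2.7 CPM, and without it the log2 fold change of Gzma was 0.52 ± 0.35. Cd8a (0.40 ± 0.45), Cd8b1 (0.01 ± 0.41) and Nkg7 (0.18 ± 0.31) had log2 fold changes smaller than their SE. Within the prefix that both genotypes carry at D80, with 2 WT and 2 KO libraries, Gzmb had 0.69 ± 0.25 (adjusted p = 0.45), Gzma 0.24 ± 0.32, Cd8b1 -0.86 ± 0.40, Cd8a -0.37 ± 0.31, Klrk1 -0.20 ± 0.29 and Nkg7 -0.035 ± 0.29. DESeq2 called no member at D80 and 0.153% of all genes higher, with an adjusted p of 0.0734 for Gzmb. Neutrophil markers summed to 35.3 to 216 CPM in KO and 7.69 to 42.2 CPM in WT, and their part was not tested. Trdc was 1.30 to 2.42 CPM in KO and 0.455 to 0.615 CPM in WT, without overlap, with a log2 fold change of 1.65 ± 0.26 (adjusted p = 0.68).

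**Figure D3:**
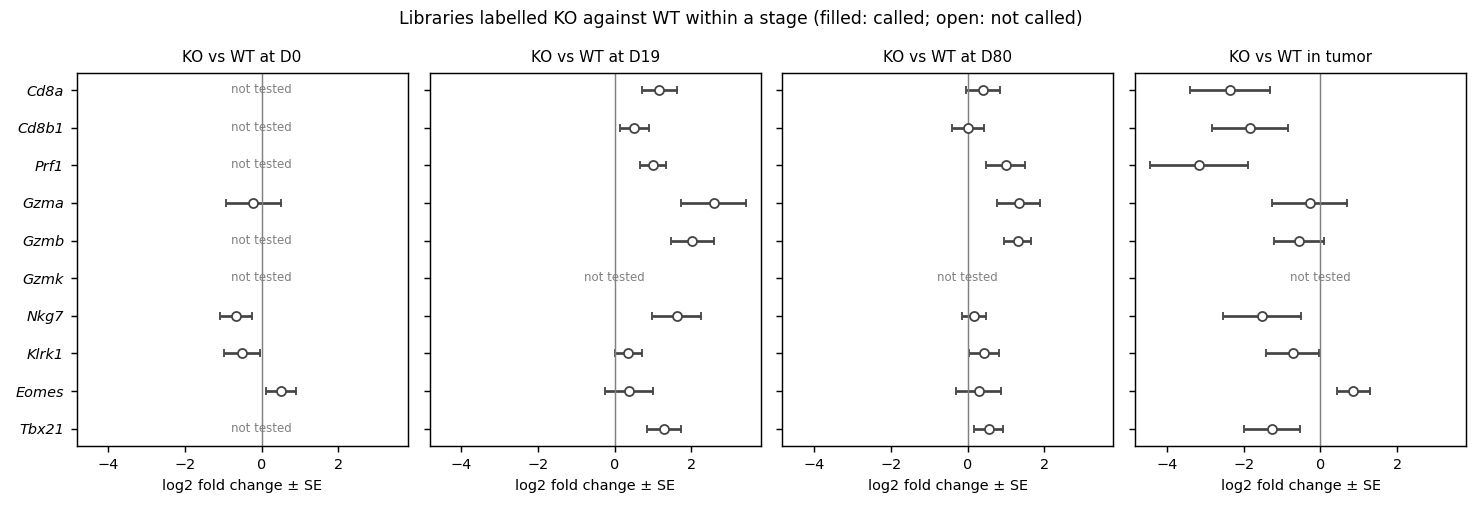
Log2 fold change of KO against WT with its SE (x axis) for each member at each stage; open points were not called, and members without enough counts are marked as not tested. The points lie above 0 at D19 and D80 and, except Eomes, below 0 in tumors; Gzma at D0 and in tumors, Eomes at D19, and Cd8a, Cd8b1, Nkg7, Klrk1 and Eomes at D80 changed sign under other settings or without 1 library.

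Tumors were compared next. Of the 9 members tested, 8 had lower fitted levels in KO than in WT tumors and none was called by the rule for tumors, an unadjusted p under 0.01 with more than 2-fold change, where 0.0422% of all 18961 genes were called lower and 0.264% higher. At an unadjusted p under 0.05, 2 of 9 were lower (Cd8a and Prf1), where 1.16% of all genes were. Cd8a was 0.30, 0.347 and 0.464 CPM in the 3 KO tumors and 0.939, 6.56, 0.973, 0.131 and 1.19 CPM in the 5 WT tumors. The 3 KO tumors lay below 4 of the WT tumors and above the tumor of WT mouse 579. The log2 fold change of Cd8a was -2.36 ± 1.04 (adjusted p = 0.70). Prf1 was 0.0818, 0.0800 and 0.107 CPM in KO, from 3 counts in each tumor, and 0.457, 2.97, 0.612, 0.0524 and 0.152 CPM in WT (-3.17 ± 1.27, adjusted p = 0.70). Cd8b1 had -1.84 ± 1.0, Nkg7 -1.52 ± 1.02 and Tbx21 -1.27 ± 0.73 (adjusted p = 0.70 to 0.71).

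The fitted differences of the granzymes were smaller. Gzma was 1.80, 2.59 and 9.97 CPM in KO tumors and 2.79, 17.6, 7.48, 0.419 and 2.80 CPM in WT tumors, a log2 fold change of -0.28 ± 0.98 (adjusted p = 0.93) that was 0.61 ± 0.88 without WT mouse 541. Gzmb was 2.18, 1.55 and 4.07 CPM in KO and 3.30, 7.76, 5.67, 0.759 and 2.50 CPM in WT (-0.55 ± 0.65, adjusted p = 0.79). The highest KO value of both granzymes came from mouse 544, whose tumor library stands apart. Eomes was the member above 0, with 0.86 ± 0.44 (adjusted p = 0.70), from 0.518, 0.453 and 0.214 CPM in KO and 0.101 to 0.329 CPM in WT.

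Library and tool moved these values. Without WT mouse 541 the log2 fold change of Cd8a was -1.07 ± 0.65 (adjusted p = 0.73) and that of Cd8b1 -0.64 ± 0.66, Prf1 and Tbx21 no longer had enough counts to be tested, and the median over the members tested went from -1.27 to -0.27. Without KO mouse 544 the median was -1.73. By the same nominal rule DESeq2 called Cd8a and Prf1 lower, as 0.169% of all genes, with an adjusted p of 0.60 for both. A fit with the number prefix as a block also called both (0.707% of all genes). Within the prefix that both genotypes carry in tumors, with 2 WT and 2 KO libraries, Cd8a (-3.16 ± 0.88), Cd8b1 (-2.52 ± 0.73) and Prf1 (-4.18 ± 0.93) were called (0.786% of all genes). Each other prefix is carried by 1 tumor library, so both fits compare the genotypes in the same libraries and are not separate results. WT mouse 541 is among those libraries. Of the 18 T cell markers, none was higher and none was called, with a median of -0.34 and the smallest p for Cd28, a co-stimulatory receptor (-1.22 ± 0.47, adjusted p = 0.70). Their summed level was 41.5 to 42.4 CPM in KO and 35.1 to 71.4 CPM in WT tumors, with WT mouse 541 the highest. Mast cell markers summed to 40.7 to 77.6 CPM in KO and 81.5 to 191 CPM in WT, without overlap, and 1 of 8, the mast cell protease Mcpt2, was called lower (-1.40 ± 0.43). All 10 B cell markers had log2 fold changes below 0, with a median of -0.87, and all 7 neutrophil markers tested were above 0, with a median of 1.03. Their part in the members' values was not tested.

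Tumor tissue was set against the D80 colon of the same genotype. In KO, 6 of 9 members tested fell (Cd8a, Cd8b1, Prf1, Nkg7, Klrk1 and Tbx21) and none rose, where 16.4% of all 19457 genes fell and 10.3% rose. The 6 did not overlap between tumor and colon, as for 27.9% of all genes. Cd8a went from 1.35, 4.42, 1.36 and 1.47 CPM in colon to 0.30, 0.347 and 0.464 CPM in tumors, a log2 fold change of -2.57 ± 0.56 (adjusted p = 0.0077). Prf1 went from 0.769, 0.986, 0.317 and 0.890 CPM to 0.0818, 0.0800 and 0.107 CPM (-3.05 ± 0.51, adjusted p = 0.0026). Tbx21 fell by 2.26 ± 0.47 (adjusted p = 0.0067), Klrk1 by 1.88 ± 0.57 (adjusted p = 0.0280), Nkg7 by 1.85 ± 0.52 (adjusted p = 0.0204) and Cd8b1 by 1.57 ± 0.52 (adjusted p = 0.0369) on the log2 scale. Gzma (0.21 ± 0.75, adjusted p = 0.83), Gzmb (-0.58 ± 0.38, adjusted p = 0.24) and Eomes (0.20 ± 0.42, adjusted p = 0.71) were not called. Cd8a, Prf1 and Tbx21 were called whichever library was left out. Without KO mouse 544 in tumors Gzmb and Gzmk were called lower too, 8 members in all, a count not set against all genes. Cd8b1, Klrk1 and Nkg7 lost their calls without the colon of KO mouse 535 or the tumor of KO mouse 527, Cd8b1 also without the colon of mouse 527 or 543, Klrk1 also without the colon of mouse 544, and both Cd8b1 and Klrk1 without the tumor of mouse 543.

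In WT no member was called by edgeR between tumor and D80 colon, where 8.0% of all 19007 genes rose and 13.5% fell. Gzma went from 0.789, 2.65, 1.46 and 1.52 CPM in colon to 2.79, 17.6, 7.48, 0.419 and 2.80 CPM in tumors (1.83 ± 0.85, adjusted p = 0.13), and Gzmb had 1.27 ± 0.60 (adjusted p = 0.14). Cd8a had 0.18 ± 0.82, and without WT mouse 541 the median over the members tested went from 0.18 to -1.01, and without WT mouse 581 to 0.055. At an unadjusted p under 0.05 none of the 9 passed, where 18.1% of all genes were higher and 23.1% lower, and DESeq2 called Gzma (adjusted p = 0.0479) with 9.33% of all genes higher. Without WT mouse 579 both Gzma and Gzmb were called higher by edgeR, a count not set against all genes. With the mouse as a block, which pairs the tissues of 1 animal, Gzma (1.94 ± 0.41, adjusted p = 0.0162) and Gzmb (1.36 ± 0.33, adjusted p = 0.0235) were called higher in WT tumors, as 8.38% of all genes. In each genotype this fit compares the tissues only within the 3 mice that gave both. The tumor of WT mouse 579 therefore does not enter its contrast, as in the fit without that mouse. In KO the block kept Cd8a, Prf1, Nkg7, Klrk1 and Tbx21 as lower (14.2% of all genes) and no longer called Cd8b1.

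Among mice that gave both tissues, Cd8a went from 1.35 to 0.30 CPM in KO mouse 527, from 1.36 to 0.347 CPM in KO mouse 543 and from 1.47 to 0.464 CPM in KO mouse 544. In WT it went from 2.27 to 6.56 CPM in mouse 541, from 1.34 to 0.973 CPM in mouse 542 and from 1.67 to 1.19 CPM in mouse 555. Gzmb was higher in the tumor than in the colon of all 3 WT mice, and of the KO mice only in mouse 544. The difference between genotypes in the change from colon to tumor was not called for any of the 10 members tested, and 0.0% of all genes were called in either direction. Its smallest p was that of Prf1 (-4.15 ± 1.40, adjusted p = 0.42), and Cd8a had -2.74 ± 1.17 (adjusted p = 0.42). Without WT mouse 541 these were -2.75 ± 1.0 (adjusted p = 0.54) and -1.47 ± 0.81 (adjusted p = 0.55), and the median over the members tested went from -1.82 to -0.75. Without the tumor of KO mouse 544 that median was -2.39, and without the colon of WT mouse 581 it was -1.68. At an unadjusted p under 0.05, 4 of the 10 were lower (Cd8a, Prf1, Gzmb and Tbx21), where 2.18% of all genes were, and DESeq2 called none, with 0.0% of all genes lower.

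**Figure D4:**
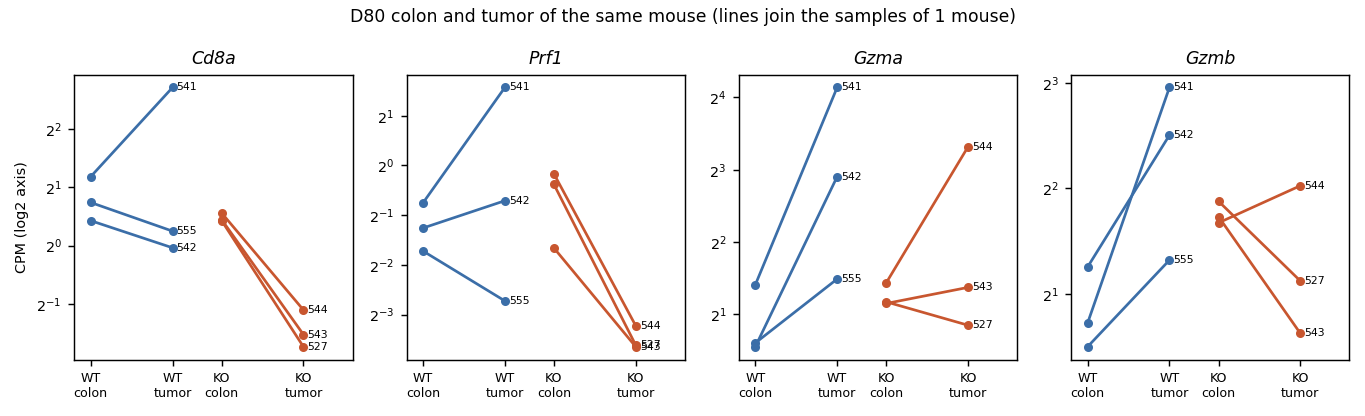
CPM on a log2 axis of Cd8a, Prf1, Gzma and Gzmb in the D80 colon and the tumor of the same mouse, with a line per mouse (blue WT, orange KO, mouse number at the tumor value). Cd8a and Prf1 are lower in the tumor of each of the 3 KO mice, while Gzma rises in all 3 WT mice. Among the KO mice Gzma falls in mouse 527 and rises in mice 543 and 544, most in mouse 544.

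Tissue markers moved with the tumor comparison. Of all genes tested, 16.4% fell and 10.3% rose in KO, and 13.5% fell and 8.0% rose in WT. Smooth muscle markers summed to 149 to 244 CPM in KO tumors and 2135 to 3375 CPM in KO colon at D80, and 8 of 8 fell in both genotypes. T cell markers fell for 12 of 18 genes in KO and 2 of 18 in WT, where 1 rose. B cell markers fell for 10 of 10 in KO and 3 of 10 in WT. Other granule and killing genes fell for 3 of 13 tested in KO, namely Cst7, Ctsw and Rab27a, and for 1 of 13 in WT, where 1 rose. Of transcription factors of effector and memory T cells, 4 of 10 fell in KO, with Irf4 at -3.31 ± 0.46, and 2 rose, Lef1 and Tcf7, both of which are also Wnt pathway factors of the epithelium. In WT 2 of 10 of these factors fell and 2 rose. Trdc rose in both genotypes, by 2.22 ± 0.44 in WT (adjusted p = 0.0046) and by 1.35 ± 0.36 in KO (adjusted p = 0.0170), while Trgc1, Trgc2 and Trgc4, constant genes of the gamma chain, fell in KO. Of the 4 gamma delta constant genes, 1 rose and 1 fell in WT. Of NK type receptors and their adaptors, 5 of 10 fell in KO, among them Slamf7 (-2.95 ± 0.32) and Cd226 (-2.43 ± 0.32), and Cd244a, a receptor of NK and CD8 cells, rose (1.5 ± 0.17). In WT 3 of 9 of these receptors and adaptors fell and 1 rose. Of cytokines, chemokines and receptors of effector lymphocytes, 8 of 12 fell in KO and 2 of 10 in WT. The part of tissue make-up in the members' changes was not tested.

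Ratios within a library ask whether members moved in proportion. The log2 ratio of Cd8b1 to Cd8a, which tells conventional CD8 alpha-beta from CD8 alpha-alpha cells in part, was -1.23 ± 0.20 (SD, n = 4) in KO and -0.51 ± 0.63 (SD, n = 4) in WT at D19, and lower in all 4 KO libraries than in any WT library. The margin was narrow: WT mice 805 and 812 had -1.08 and -0.98, against -1.08 for the highest KO library, while WT mice 685 and 686 had 0.27 and -0.27. An exact two-sided permutation test over libraries gave p = 0.0286, the smallest that 4 against 4 allows, and 0.46 after Benjamini-Hochberg adjustment over the 16 ratio tests. The log2 ratio of Cd8a to the T cell marker Cd3e was -0.86 ± 0.68 (SD, n = 3) in KO tumors and 0.48 ± 1.18 (SD, n = 5) in WT tumors (exact permutation p = 0.0714, adjusted 0.57). The log2 ratio of Eomes to Tbx21 was 1.22 ± 1.16 (SD, n = 3) in KO tumors and -0.47 ± 1.02 (SD, n = 5) in WT tumors (exact permutation p = 0.11, adjusted 0.57). The ratio of Gzmb to Gzma did not differ beyond its spread at any stage, with exact permutation p of 0.43 to 0.91. None of the 16 tests passed after adjustment, and 1 of 16 had an unadjusted p under 0.05.

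Across all groups, the mean of Cd8a was lowest in KO (0.220 CPM) and WT (0.339 CPM) untreated colon, followed by KO tumors (0.370 CPM), and highest in KO colon at D19 (2.41 CPM). The ranges of these 3 lowest groups overlapped, and WT colon at D19 (1.09 CPM) was the next in order. For Gzmb the order was WT and KO untreated colon (0.266 and 0.269 CPM), then WT colon at D80 (1.52 CPM), WT colon at D19 (2.13 CPM), KO tumors (2.6 CPM), KO colon at D80 (3.88 CPM), WT tumors (4.0 CPM) and KO colon at D19 (8.47 CPM). From WT colon at D80 upward, each group overlapped its neighbour in this order. Eomes showed no such order, with group means from 0.224 CPM in WT tumors to 0.413 CPM in KO untreated colon.

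With group means removed, the transcripts most like a member over the 32 libraries, among 15902 genes compared, were named by Pearson's r of log2 CPM as a description; the points share libraries, depth and tissue make-up. For Cd8a they were Sh2d2a, the T cell adaptor TSAd (r = 0.87), Cd3g (0.85), Ms4a4b (0.83), Trim30a (0.82) and Klrd1, which encodes CD94 (0.82). For Prf1 they were Rsad2 (0.85), Cd226, which encodes the activating receptor DNAM-1 (0.82), Ifit1 (0.82), Sh2d2a (0.81) and Trim30a (0.81), of which Rsad2, Ifit1 and Trim30a are interferon-induced genes. For Gzma they were Ms4a4b (0.83), Slamf8 (0.82), Phf11b (0.82), Klrd1 (0.81) and Ccl5 (0.80). For Gzmb they were Cd3e (0.85), Olfr56 (0.82), Tnfrsf9, which encodes the co-stimulatory receptor 4-1BB (0.80), Lat (0.79) and Phf11 (0.76). Among the members themselves Cd8a was nearest to Nkg7 (r = 0.78), Cd8b1 (0.76) and Klrk1 (0.74), and farthest from Eomes (0.24).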

How the data were processed

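Bulk RNA-Seq libraries (75 nt reads) of mouse colon and tumors were analysed. Per the labels and the study's methods, the authors checked reads with FastQC 0.11.5, aligned them to mm10 with STAR and counted them per gene with Subread. The deposited values are raw counts per gene, whole numbers that sum to 18951121 to 47623288 per library, so the precision of a rare transcript is set by few reads; intervals and floors cover counting error only.

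Groups came from the labels. Each comparison was fitted on its own groups by edgeR's quasi-likelihood test (version 4.0.16, R 4.3.3) after filterByExpr and TMM normalisation, with the legacy option, with Benjamini-Hochberg adjustment over all genes tested. A gene was called at an adjusted p under 0.05, or between tumors an unadjusted p under 0.01, and more than 2-fold change. CPM used TMM factors over the 32 libraries, and RPKM divided it by merged GENCODE exon length. Ratios used a prior count of 1 and exact two-sided permutation tests (scipy 1.17.1 in Python 3.11.15). Errors of log2 fold changes are SE. The scripts were tested on simulated data. Alternatives were DESeq2 1.42.0, other size factors, no filter, a minimum of 10 counts in each library, 1 fit of all libraries, the number prefix of the titles as a block or held fixed (the latter chosen after seeing the data), the mouse as a replicate block, and each library left out.

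The mouse numbers in the labels pair a D80 colon with a tumor of the same animal in 3 mice per genotype. Deviations from the group means of these pairs correlated across genes with r of 0.0616, 0.0913 and 0.216 in WT and 0.122, 0.0586 and 0.112 in KO. Samples are separate mice otherwise.

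The members, gene lists and tests were chosen with earlier results of these data known. All 10 members are named, with up to 4 genes of each other list by smallest p and the 5 genes most correlated with Cd8a, Prf1, Gzma and Gzmb each.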

Additional observations from a re-analysis of the deposited data

Results flagged for a closer look

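In 69 combinations of member and group with 4 or 5 libraries, a library was held to be far from the others by Dixon's test at the 95% level, which chance alone gives in about 1 of 20 groups. It marked 9 of them. The tumor of WT mouse 541 was marked for 5 members: Cd8a stood at 6.56 CPM there against 0.131 to 1.19 CPM in the other WT tumors, Cd8b1 at 3.83 CPM against 0.105 to 0.918 CPM, Prf1 at 2.97 CPM against 0.0524 to 0.612 CPM, Nkg7 at 5.18 CPM against 0.183 to 1.14 CPM, and Gzmk at 0.359 CPM against 0 to 0.0761 CPM. The D80 colon of KO mouse 535 was marked for Cd8a, at 4.42 CPM against 1.35 to 1.47 CPM, and for Gzma, at 9.54 CPM against 2.22 to 2.7 CPM. The D80 colon of WT mouse 581 was low for Tbx21, at 0.169 CPM against 0.530 to 0.582 CPM. Prf1 in untreated KO mouse 872 was 0.0584 CPM, from 2 counts, with 0 in the other 3 libraries. The causes were not tested.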

How the results depend on the processing

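The number of members called changed as follows. DESeq2 called 2 members for KO against WT at D19 (1.14% of all genes higher) and 2 in tumors (0.169% lower). It called 1 for D80 against D19 in KO (1.31% lower) and 1 for tumor against D80 in WT (9.33% higher). In each of these comparisons edgeR called 0. In tumors KO against WT gave 2 with all 32 libraries in 1 fit (0.417% of all genes lower). It gave 2 with the number prefix as a block (0.707%) and 3 within prefix 76 (0.786%), and both fits compare the genotypes only in the libraries of prefix 76. Against D0, the fit of all libraries gave 3 at D19 in WT (8.18% of all genes higher). In KO that fit gave 9 at D19 (10.3% higher) and 9 at D80 (13.7% higher). No filter gave 6 at D19 in WT and 9 at both times in KO, and prefixes 115 and 116 gave 7 at D19 in WT. Leaving out 1 library gave 5 to 6 at D19 and 4 to 7 at D80 in WT and 7 to 8 at D19 in KO. For tumor against D80, the mouse as a replicate block gave 2 in WT (8.38% of all genes higher) and 5 in KO (14.2% lower). In KO, 10 counts in each library left 2, no filter gave 7 and the fit of all libraries 5 (15.1% lower). Leaving out 1 library gave 0 to 2 in WT and 3 to 8 in KO. Where no share is given here, the count was not set against all genes. The minimum of 10 counts in each library left no member in the comparisons with D0. The causes were not tested.

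Fitted log2 fold changes that turned sign were not called in either fit. KO against WT at D19, Eomes was -0.30 with the prefix block and -0.37 within prefixes. The prefix block and the prefix 76 subset at D80 compare the genotypes in the same libraries, so they are not separate results. At D80, with the prefix block and within prefix 76 in turn, Cd8a was -0.36 and -0.37, Cd8b1 -0.85 and -0.86, Nkg7 -0.030 and -0.035, and Klrk1 -0.19 and -0.20, and Cd8b1 was -0.018 with DESeq2 and -0.018 with its size factors. Eomes for D19 against D0 in WT was -0.0019 with DESeq2, and the Eomes to Tbx21 ratio at D0 was -0.35 with a prior count of 0.25.

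With 1 library left out, KO against WT ranged from -0.97 to 0.20 for Gzma at D0, from -1.53 to 0.61 for Gzma in tumors, and at D80 from -0.24 to 0.61 for Cd8a, -0.45 to 0.30 for Cd8b1, -0.086 to 0.35 for Nkg7 and -0.0025 to 0.62 for Eomes. Eomes ranged from -0.051 to 0.28 for D19 against D0 in WT, -0.32 to 0.11 in KO, -0.47 to 0.16 for D80 against D0 in WT, -0.51 to 0.64 for D80 against D19 in WT, -0.0035 to 0.47 for tumor against D80 in KO and -0.47 to 0.70 for the genotype difference in the D19 rise. For D80 against D19, WT ranged from -0.20 to 0.44 for Prf1 and -0.78 to 0.028 for Gzmb, and KO from -0.80 to 0.072 for Cd8a, -0.53 to 0.13 for Cd8b1, -0.18 to 0.93 for Gzmk, -1.21 to 0.012 for Nkg7, -0.52 to 0.018 for Klrk1 and -0.14 to 0.53 for Tbx21. For tumor against D80, WT ranged from -1.10 to 0.50 for Cd8a, -0.93 to 0.57 for Cd8b1, -0.31 to 1.49 for Prf1 and -1.40 to 0.15 for Nkg7, and KO from -0.99 to 1.051 for Gzma. Ratios ranged from -0.26 to 0.81 for Cd8b1 to Cd8a at D0, -0.51 to 1.27 and -0.50 to 0.25 for Gzmb to Gzma at D0 and D19, and -0.50 to 0.43, -0.85 to 0.012 and -0.28 to 0.55 for Eomes to Tbx21 at D0, D19 and D80. Of the values without 1 library, 1127 kept direction and side of the threshold, 26 lost and 4 gained significance, and 60 turned sign; of those under other settings, 714, 8, 16 and 14 did.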
